A study of Mus musculus with 6 samples.

Results

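The mitochondrial genome encodes 7 subunits of complex I, and their messenger RNAs (mt-Nd1, mt-Nd2, mt-Nd3, mt-Nd4, mt-Nd4l, mt-Nd5 and mt-Nd6) were followed here in the tailbud of mouse embryos. They were chosen by name, not by a cut on a measured value, but with earlier results of these data known. They are 7 of the 56953 features of the deposited count table, and all 7 passed the filter on low counts. RNA with poly(A) tails was sequenced from tailbud tissue microdissected at embryonic day 9.5, from 3 wild-type libraries and 3 libraries of the genotype Fgfr1 FCPG/FCPG, called mutant below. The mouse line carries point mutations in residues of the receptor Fgfr1 at which signaling effectors bind, and the libraries address what canonical FGF signaling does to mesoderm transcription. The labels name the cells as NMPs with somitic and intermediate mesoderm, and say nothing of strain, sex, litter or how many embryos each library held.

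Complex I (NADH dehydrogenase) takes electrons from NADH, passes them to ubiquinone and pumps protons across the inner mitochondrial membrane. Its mitochondrially encoded subunits form the core of the membrane arm, while the remaining subunits are made from nuclear genes. The mitochondrial genome is read from both strands as long precursor RNAs, which are mostly cut at the transfer RNAs that lie between the mRNAs. Of the complex I mRNAs, mt-Nd6 alone comes from the light-strand promoter, and the other 6 come from the heavy-strand promoter.

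Several of these genes touch or overlap, which limits how far their counts are separate. The ends of the overlapping pairs are shown because a read there can belong to either gene (transcript sequences of GENCODE M21 on GRCm38, 5′ to 3′, 60 bases each, shared bases in capitals). The labels' build is mm39, so no coordinates are given. The last 7 bases of mt-Nd4l are the first 7 of mt-Nd4, on the same strand.
mt-Nd4l, last 60 bases: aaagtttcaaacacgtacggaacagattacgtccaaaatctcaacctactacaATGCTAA
mt-Nd4, first 60 bases: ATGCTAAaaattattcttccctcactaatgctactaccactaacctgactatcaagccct
The last 14 bases of mt-Nd5 and of mt-Nd6 pair with each other, since the genes end on opposite strands.
mt-Nd5, last 60 bases: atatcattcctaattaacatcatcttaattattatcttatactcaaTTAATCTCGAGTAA
mt-Nd6, last 60 bases: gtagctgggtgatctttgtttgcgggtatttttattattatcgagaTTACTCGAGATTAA

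The base composition sets mt-Nd6 apart from the other members, as the starts of mt-Nd1 and mt-Nd6 show, with each G in capitals.
mt-Nd1, first 60 bases: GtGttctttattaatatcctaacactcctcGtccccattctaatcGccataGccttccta
mt-Nd6, first 60 bases: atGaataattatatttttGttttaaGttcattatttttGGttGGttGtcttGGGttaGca
Of the bases shown, 5 were G in mt-Nd1 and 12 in mt-Nd6. Over the whole transcript, G made up 28.1% of mt-Nd6 and C made up 5.97%. In the other 6, G made up between 7.996% (mt-Nd2) and 11.6% (mt-Nd1), and C between 22.1% (mt-Nd3) and 30.0% (mt-Nd4l).

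Library totals ran from 16984568 to 27316475 counts, with 18913178 to 27316475 in wild type and 16984568 to 26568664 in the mutant. The members held between 6958 and 390467 counts per library, so the spread between libraries, not the counting error, sets their precision. Names of nuclear features could be read over little of the genome: of 676 genes of families that every cell uses, 203 reached 10 CPM (counts relative to the library total, which was scaled by TMM for the members). A hidden Markov model kept 1 stretch of chromosome 4, from Rps20 to Sec61b, where 10 of 10 such genes reached that level. The model picks stretches by that same level, so the 10 of 10 is no separate check of the names in the kept stretch. None of the 9 tailbud markers and none of the 3 endothelial markers listed lay there, so the labelled tissue was not checked against them, and the feature named Fgfr1, which lies on another chromosome, was not used to check the genotype. The mitochondrial features were kept without entering the model, so it did not check their names. Their 13 mRNAs stood at 392 CPM (mt-Nd4l in mutant replicate 2) or more in every library.

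All 7 complex I mRNAs fell in the mutant, to between 37.0% (mt-Nd1) and 54.4% (mt-Nd3) of their wild-type mean. Their log2 fold changes (mutant over wild type) lay between -1.43 and -0.88, the median being -1.27, and no adjusted p exceeded 0.017 (quasi-likelihood test of edgeR, Benjamini-Hochberg over 14550 features). The median over all tested features was -0.0062, where 3.67% of all tested features were called lower and 7.92% in either direction. In each of the 7, every mutant library lay below every wild-type library, which was so for 16.1% of all tested features. The 7 mRNAs come from 1 genome and from the same libraries, so they are not 7 independent observations. In a piece of tissue, fewer cells rich in these mRNAs and less of them per cell cannot be told apart, and CPM are relative to the other RNA of the library.

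mt-Nd1 encodes the subunit beside the site where ubiquinone is reduced. It stood at 14549, 13048 and 12175 CPM in the wild-type libraries (replicates 1, 2 and 3, the order used throughout), against 5667, 3873 and 5175 CPM in the mutant libraries. The groups lay far apart, and wild-type replicate 1 was the highest. Its mean went from 13258 ± 1201 to 4905 ± 927 CPM (SD, n = 3 each), and its log2 fold change was -1.43 ± 0.14 (SE), with an edgeR adjusted p of 0.00389. mt-Nd3 encodes a subunit near the same site, at the joint of the 2 arms of the enzyme. It stood at 1760, 1568 and 1503 CPM in wild type, against 1034, 675 and 917 CPM in the mutant. Its groups were closer than those of mt-Nd1 but stayed apart, with a log2 fold change of -0.88 ± 0.15 (SE), with an edgeR adjusted p of 0.0141. Without wild-type replicate 2 the call of mt-Nd3 ended (adjusted p = 0.0722 by edgeR), at a log2 fold change of -0.90. Which member changed most or least depended on the fit: without wild-type replicate 2, mt-Nd6 (-1.57) and mt-Nd5 (-1.56) were past mt-Nd1 (-1.45), and without wild-type replicate 1, mt-Nd2 (-0.68) changed less than mt-Nd3 (-0.80).

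mt-Nd2, mt-Nd4 and mt-Nd5 encode the 3 large antiporter-like subunits thought to carry protons. mt-Nd2 stood at 7569, 4840 and 5314 CPM in wild type, against 3458, 2896 and 3089 CPM in the mutant. Wild-type replicate 1 stood well above the other wild-type libraries, and the mutant libraries lay close together. The log2 fold change of mt-Nd2 was -0.91 ± 0.16 (SE), with an edgeR adjusted p of 0.0166. mt-Nd4 stood at 11696, 7537 and 7543 CPM in wild type, against 3852, 3513 and 4258 CPM in the mutant. Here too wild-type replicate 1 was the high library, and the other two differed little. The log2 fold change of mt-Nd4 was -1.20 ± 0.17 (SE), with an edgeR adjusted p of 0.00931. mt-Nd5 stood at 7297, 3777 and 4587 CPM in wild type, against 2077, 2097 and 1877 CPM in the mutant, a log2 fold change of -1.37 ± 0.22 (SE), with an edgeR adjusted p of 0.0117. The mutant libraries of mt-Nd5 varied least of all members, with a coefficient of variation of 6.04%.

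mt-Nd4l, a small membrane subunit read from the same RNA as mt-Nd4, stood at 1531, 782 and 915 CPM in wild type, against 471, 392 and 473 CPM in the mutant. Its wild-type libraries varied most of all members, with a coefficient of variation of 37.1%. The log2 fold change of mt-Nd4l was -1.27 ± 0.23 (SE), with an edgeR adjusted p of 0.017, and without mutant replicate 1 the call ended (adjusted p = 0.053 by edgeR) at -1.31. mt-Nd6, a membrane subunit near the ubiquinone site, stood at 1759, 939 and 1249 CPM in wild type, against 558, 523 and 443 CPM in the mutant. Its log2 fold change was -1.37 ± 0.21 (SE), with an edgeR adjusted p of 0.0103.

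**Figure D1:**
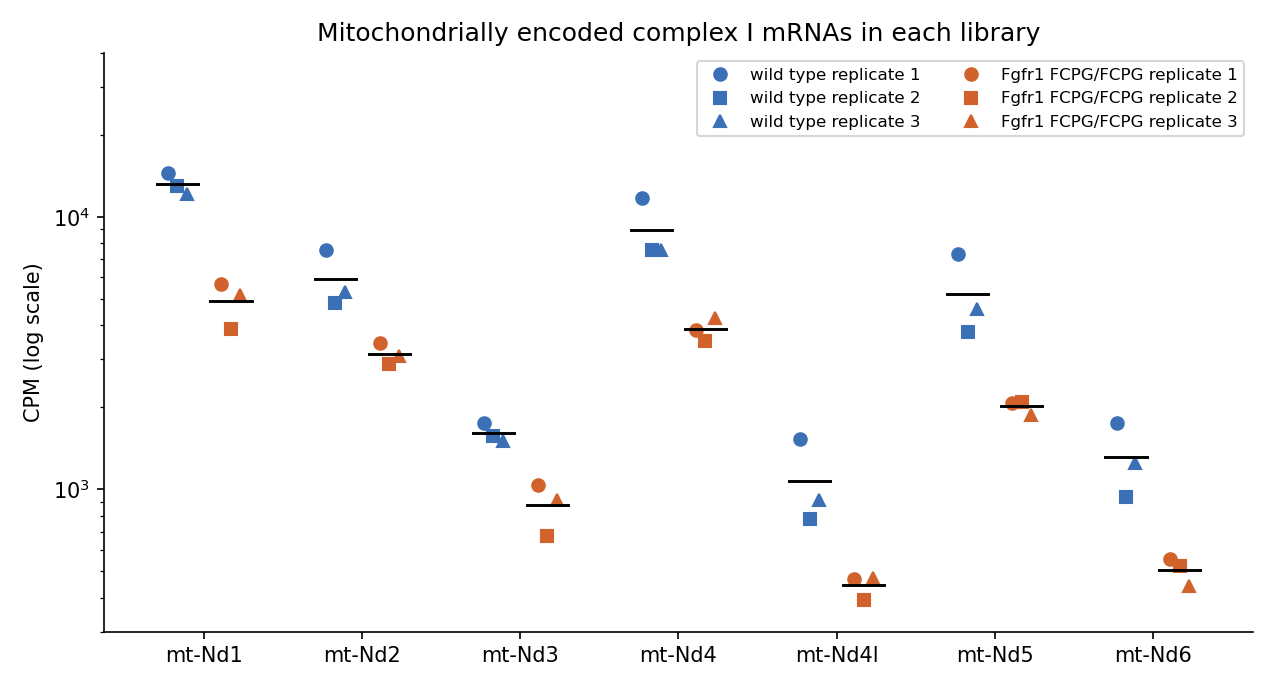
Level of each complex I mRNA in CPM (log scale) in the 3 wild-type (blue) and 3 mutant (orange) libraries, with a symbol for each replicate and a black line at the group mean. In all 7 the orange points lie below the blue ones, and wild-type replicate 1 (blue circle) is the highest.

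The libraries were ordered much alike across members. Wild-type replicate 1 was the highest of the 6 libraries for 7 of the 7 mRNAs. Wild-type replicate 2 was the lowest wild-type library for 5 of them, and mutant replicate 2 was the lowest library for 5. Without wild-type replicate 1 all 7 were still called lower, where 415 of 15053 tested features were. The log2 fold changes of the members then ran from -1.35 to -0.68. The 4 features named as Y-linked genes lie outside the readable stretch, so the sex of the libraries is not taken from them. They split the libraries all the same, at 583.6, 942.4 and 655.7 CPM summed in wild-type replicate 1 and mutant replicates 2 and 3, against at most 0.598 CPM in the others. With a term for that split all 7 members were called lower, where 264 of 14550 tested features were. In that fit the members had log2 fold changes from -1.44 to -0.86. In the authors' deposited table, made with DESeq2, 7 members were lower as well, with log2 fold changes from -1.43 to -0.87, where 5.39% of its features with an adjusted p were called lower.

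Divided by transcript length, mt-Nd1 had the highest level of the 7 in both groups, at 13853 ± 1255 CPM per kb in wild type and 5125 ± 969 CPM per kb in the mutant (SD, n = 3). In wild type mt-Nd4 followed at 6477 ± 1741 CPM per kb, mt-Nd2 at 5691 ± 1405, mt-Nd3 at 4628 ± 384, mt-Nd4l at 3624 ± 1345, mt-Nd5 at 2862 ± 1011 and mt-Nd6 at 2535 ± 797. After mt-Nd1, the ranges of each neighbouring pair in that order overlapped. In the mutant the order began with mt-Nd1, mt-Nd2, mt-Nd4 and mt-Nd3, of which the last 3 overlapped, at 3032 ± 275, 2812 ± 271 and 2516 ± 526 CPM per kb. mt-Nd4l at 1499 ± 156 CPM per kb lay below these without overlap. mt-Nd5 at 1106 ± 66.8 CPM per kb lay below mt-Nd4l, and overlapped with mt-Nd6 at 978 ± 113. The ends of the order, mt-Nd1 at the top and mt-Nd6 at the bottom, were thus the same in both groups. Within libraries, mt-Nd4 was above mt-Nd2 in 3 of 3 wild-type libraries, and mt-Nd2 was above mt-Nd4 in 2 of 3 mutant libraries.

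The members took a smaller part of all mitochondrial mRNA in the mutant. Together they made up 4.54%, 3.30% and 3.29% of all counts in wild-type replicates 1 to 3 and 1.67%, 1.46% and 1.60% in the mutant. Of the counts of the 13 mitochondrial mRNAs they made up 32.7%, 29.4% and 30.5% in wild type and 26.7%, 27.5% and 27.1% in the mutant. The latter share does not depend on how libraries are scaled, and its mean went from 30.9% ± 1.67 to 27.1% ± 0.414 (SD, n = 3 per group), a difference of -3.73 percentage points with no overlap between the groups. The exact two-sided permutation test gave p = 0.1 for either share, the smallest that 3 libraries against 3 allow, and 0.25 after Benjamini-Hochberg adjustment over the 10 shares and ratios tested in this way. The difference was -3.36 percentage points with counts divided by length, and -3.97 without the overlapping genes mt-Nd4l, mt-Nd4, mt-Atp8 and mt-Atp6. Leaving out 1 library moved it between -2.82 (wild-type replicate 1) and -4.46 (wild-type replicate 2) percentage points. Without mutant replicate 1 it was -3.53, with an exact permutation p of 0.2. The widest Wilson interval (95%, counting error only) of a library was 0.0161 percentage points for the first share and 0.185 for the second.

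The other 6 mitochondrial mRNAs, which encode subunits of complexes III and IV and of ATP synthase, were also called lower, 6 of 6 where 3.67% of all tested features were, with log2 fold changes from -1.21 (mt-Cytb) to -0.78 (mt-Co2) and a median of -1.04. Of these, 5 were called without wild-type replicate 1, 4 without wild-type replicate 2 and 4 without wild-type replicate 3. With the term for the split by Y-linked names, 5 were called. In the same order of fits, 415 of 15053, 63 of 14990, 151 of 15199 and 264 of 14550 tested features were called lower. mt-Co2 lost its call in each fit (edgeR adjusted p from 0.0567 to 0.0881). The complex I mRNAs did not all lie on the far side of the other 6. Between mt-Nd1 at -1.43 and mt-Nd4l at -1.27, mt-Nd5 and mt-Nd6 both fell by 1.37, more than any of the 6 others with all libraries in the fit. mt-Nd4 at -1.20 was close to mt-Cytb, and mt-Nd2 and mt-Nd3 lay near mt-Co1 at -0.93. The smaller complex I share therefore came with unequal changes inside the complex. In the order of the genes, the change was large at mt-Nd1, smaller from mt-Nd2 to mt-Nd3, and larger again from mt-Nd4l to mt-Cytb; these steps between neighbours were not tested.

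**Figure D2:**
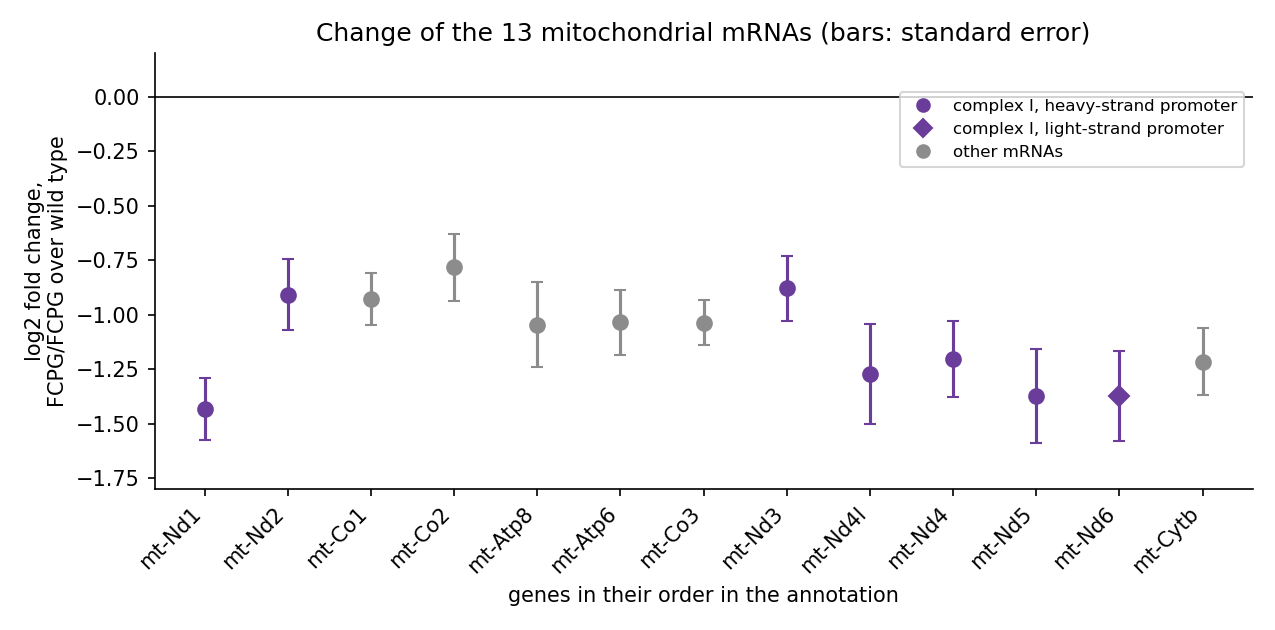
Log2 fold change (mutant over wild type, points) with its standard error (bars) for the 13 mitochondrial mRNAs, in the order in which the annotation lists them. Complex I mRNAs are purple, with mt-Nd6 as a diamond, and the others are grey; all 13 lie below 0, from -1.43 at mt-Nd1 to -0.78 at mt-Co2.

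Within the 7 mRNAs, the part of mt-Nd2 and mt-Nd3 was larger in the mutant. mt-Nd2 made up 16.4%, 14.9% and 16.0% of the complex I counts in wild-type replicates 1 to 3 and 20.2%, 20.7% and 19.0% in the mutant. The groups did not overlap, and the difference was 4.24 percentage points (exact permutation p = 0.1, adjusted 0.25). mt-Nd3 made up 3.81%, 4.83% and 4.52% in wild type and 6.04%, 4.83% and 5.65% in the mutant, a difference of 1.12 percentage points with the same p. The groups of mt-Nd3 did not overlap only by a margin too small to show at this rounding, between wild-type replicate 2 and mutant replicate 2. mt-Nd1 made up 31.5%, 40.2% and 36.6% in wild type and 33.1%, 27.7% and 31.9% in the mutant. Its groups overlapped through wild-type replicate 1, and the difference of -5.18 percentage points gave an exact permutation p of 0.3 (adjusted 0.6). That difference was -7.46 percentage points without wild-type replicate 1 and -3.14 without wild-type replicate 2. The shares of mt-Nd4, mt-Nd4l, mt-Nd5 and mt-Nd6 overlapped between the groups, with differences of 0.90, -0.0020, -0.83 and -0.24 percentage points (exact permutation p from 0.5 to 1). Leaving out 1 library moved the difference of mt-Nd4 between 0.094 (mutant replicate 3) and 1.961 (mutant replicate 1).

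Set against mt-Nd1 alone, mt-Nd2 had 52.0, 37.1 and 43.6 counts per 100 counts of mt-Nd1 in wild type and 61.0, 74.8 and 59.7 in the mutant. These groups did not overlap, but the ratio was not tested and uses the same counts as the shares above. mt-Nd3 had 15.0, 20.8 and 19.9 counts per 100 of mt-Nd4 in wild type and 26.9, 19.2 and 21.5 in the mutant. Here the groups overlapped. mt-Nd4l had 13.1, 10.4 and 12.1 counts per 100 of mt-Nd4 in wild type and 12.2, 11.2 and 11.1 in the mutant. This pair of overlapping genes thus kept a like ratio in all libraries.

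**Figure D3:**
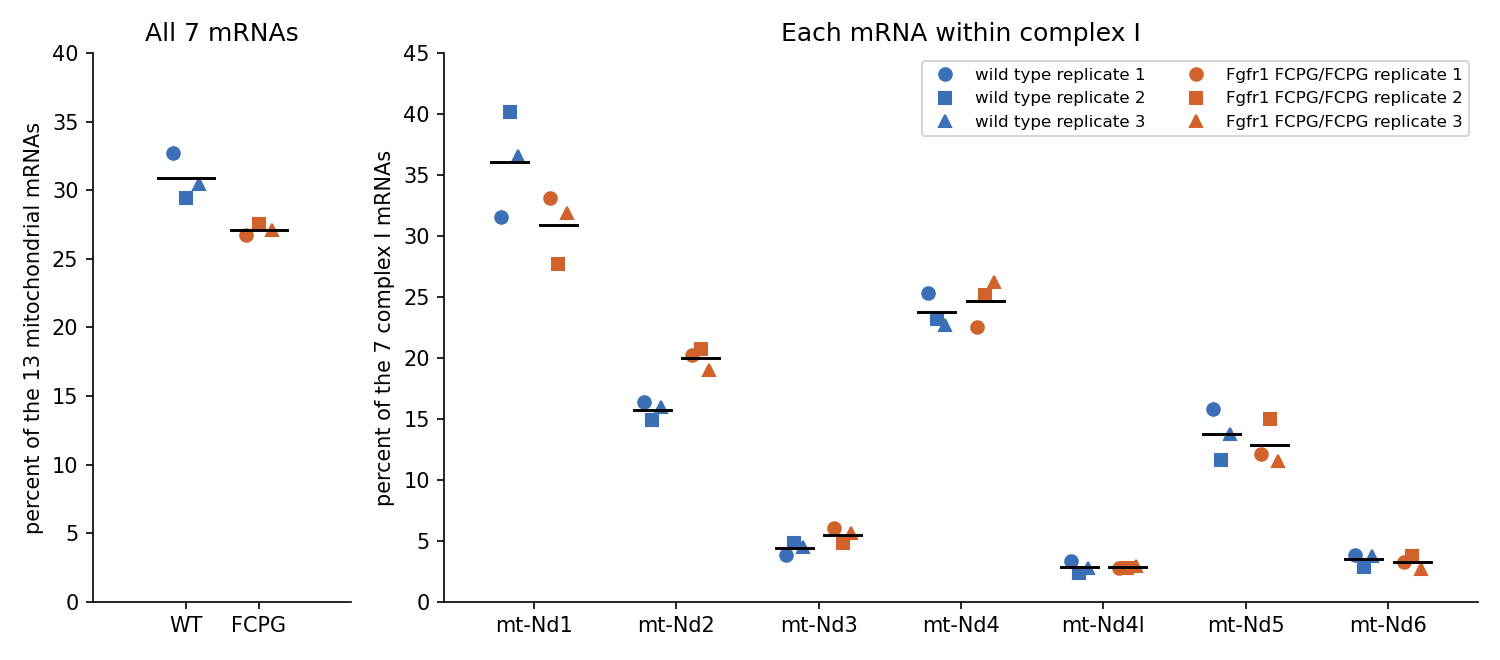
Left, counts of the 7 complex I mRNAs as a percent of the counts of all 13 mitochondrial mRNAs; right, each mRNA as a percent of the 7. Points are libraries (blue wild type, orange mutant) and black lines are group means; the complex I share went from 30.9% to 27.1%, and the share of mt-Nd2 from 15.8% to 19.99%.

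By strand, mt-Nd6 did not stand apart from the heavy-strand members. The log2 ratio of mt-Nd6 to the sum of the other 6 was -4.66, -5.07 and -4.68 in wild-type replicates 1 to 3 and -4.89, -4.68 and -5.16 in the mutant. The groups overlapped, with a difference of -0.11 (exact permutation p = 0.5, adjusted 0.714), against an SD of 0.23 in wild type and 0.24 in the mutant. Against all 12 heavy-strand mRNAs the difference was -0.29 (exact permutation p = 0.3), also with overlap. Per 100 counts of mt-Nd5, its neighbour on the opposite strand, mt-Nd6 had 24.1, 24.9 and 27.2 counts in wild type and 26.9, 24.9 and 23.6 in the mutant. The means, 25.4 ± 1.63 and 25.1 ± 1.64 (SD, n = 3), differed by less than the spread between libraries. The kit keeps strand, but the sources used here do not give whether the counting used it. The mt-Nd5 transcript is known to run on past its coding part, opposite mt-Nd6, so without strand the reads of the pair cannot be told apart.

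Counts at another gene annotated on the light strand moved the other way. Those at mt-Tp, the transfer RNA for proline at the light-strand end of the control region, stood at 132, 75.9 and 74.3 CPM in wild type, against 295, 409 and 269 CPM in the mutant. They rose by a log2 fold change of 1.78 ± 0.25 (SE), with an edgeR adjusted p of 0.00834, where 4.25% of tested features were called higher, and leaving out wild-type replicate 2 ended the call (edgeR adjusted p = 0.0576). The opposite directions hold between the groups, while the orders within them were mixed. Wild-type replicate 1 was the highest wild-type library for both mt-Nd6 and mt-Tp, and mutant replicate 3 the lowest mutant library for both. The other libraries of each group stood in opposite orders, in wild type by a small margin for mt-Tp. The difference between the changes of mt-Nd6 and mt-Tp was not itself tested, and RNA with poly(A) tails need not follow the mature transfer RNA. Without strand in the counting, reads at mt-Tp need not come from the light strand either. The ribosomal RNAs, from the heavy-strand promoter, stood at 1169, 1095 and 1013 CPM in wild type and 1588, 922 and 857 CPM in the mutant for mt-Rnr1. For mt-Rnr2 they stood at 1379, 931 and 1466 CPM and at 847, 851 and 548 CPM. mt-Rnr1 overlapped between the groups (adjusted p = 0.931 by edgeR). mt-Rnr2 was lower in the mutant without overlap, as were 16.1% of all tested features. At a log2 fold change of -0.75 it did not pass (adjusted p = 0.0657 by edgeR), though DESeq2 called it (adjusted p = 0.00414). It was also called lower in the authors' deposited results. So it was by edgeR without the low-count filter, a fit with far smaller adjusted p than the main fit (given below).

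**Figure D4:**
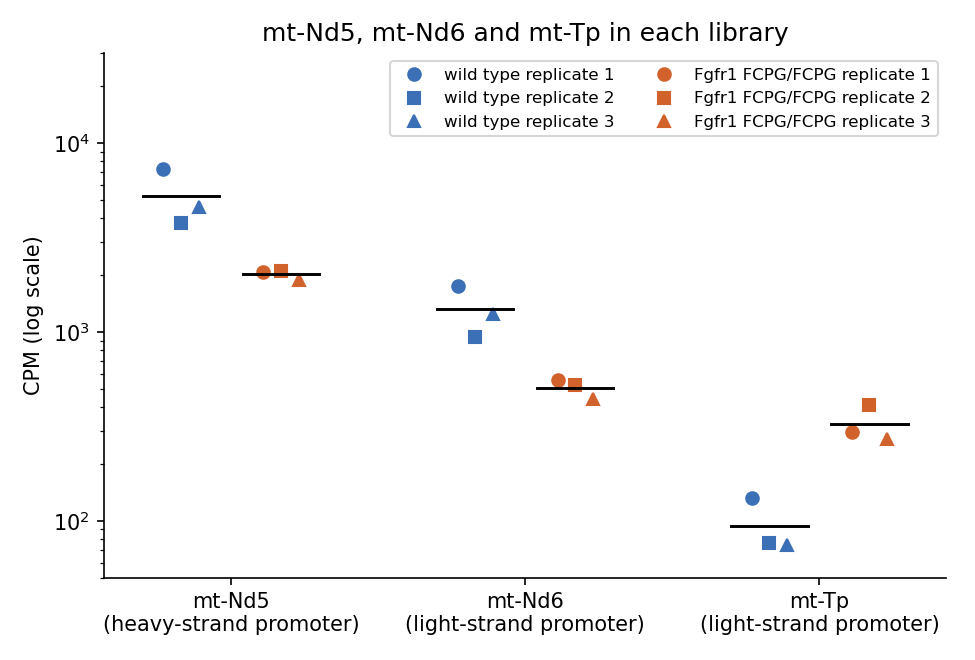
Level in CPM (log scale) of mt-Nd5 from the heavy-strand promoter and of mt-Nd6 and mt-Tp from the light-strand promoter, by library, with black lines at the group means; the strand is that of the annotated gene, not of the reads. mt-Nd5 and mt-Nd6 are lower in the orange mutant libraries and mt-Tp is higher, at 324.2 against 94.1 CPM.

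The 3 features whose levels over the 6 libraries were most like the mean log2 CPM of the members were mt-Co1 (Pearson r = 0.997), mt-Cytb (r = 0.993) and mt-Co2 (r = 0.962), among 202 features of at least 10 CPM in the mitochondrial genome or the readable stretch. The 6 points fall into 2 groups and share their libraries, so r mostly reflects the group difference. The nuclear gene ranked highest was Hemgn (r = 0.96), a nuclear protein of blood-forming cells, which was on the list of erythroid markers and is named here after its rank was seen.

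Of 38 nuclear genes listed as complex I subunits, with Ndufa4 as a former member, 37 were among the counted features. Of these, 1 lay where names can be read. Ndufb6, an accessory subunit of the membrane arm, stood at 98.8, 96.5 and 108.3 CPM in wild type, against 99.9, 74.7 and 90.3 CPM in the mutant. Its groups overlapped, and its log2 fold change of -0.20 ± 0.12 (SE) did not pass (edgeR adjusted p = 0.346). Whether it differs from the changes of the mitochondrial members was not tested.

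The blood-cell marker Hemgn fell along with the members. Of 10 primitive erythroid markers, Hemgn and Tmod1 could be read. Their summed level ran from 69.2 to 120.0 CPM in wild type and from 17.6 to 26.1 CPM in the mutant. Most of that sum was Hemgn (mean 78.1 CPM in wild type, against 10.5 CPM for Tmod1), and Tmod1 alone overlapped between the groups. Hemgn stood at 103.3, 68.2 and 62.8 CPM in wild type, against 22.4, 15.9 and 10.7 CPM in the mutant, called lower at a log2 fold change of -2.26 ± 0.29 (SE), with an edgeR adjusted p of 0.00627. Tmod1, a protein that caps actin filaments in red cells, stood at 16.8, 8.47 and 6.32 CPM and at 3.66, 7.77 and 6.85 CPM. It did not pass (adjusted p = 0.249 by edgeR), though it did with a term for the split by Y-linked names (adjusted p = 0.028 by edgeR). It also passed without the low-count filter, a fit with far smaller adjusted p than the main fit (given below). The globin genes and the other markers of that list lie outside the readable stretch. Of the 3 neural markers, Pou3f2 could be read, at 11.7, 7.21 and 4.23 CPM in wild type and 49.8, 305.6 and 20.8 CPM in the mutant. Without overlap, it was called higher at a log2 fold change of 4.01 ± 0.95 (SE), with an edgeR adjusted p of 0.0411. That call ended with limma-voom (adjusted p = 0.133) and with the term for the split by Y-linked names (edgeR adjusted p = 0.0891). Leaving out any wild-type replicate, or mutant replicate 1, ended it as well. Of all tested features, 4.25% were called higher. The part of either cell type in the fall of the complex I mRNAs was not tested.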

How the data were processed

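Polyadenylated RNA from 3 wild-type and 3 Fgfr1 FCPG/FCPG tailbud libraries was sequenced with a kit that keeps strand, as the labels' protocols state. Bowtie, featureCounts, DESeq, DESeq2 and the build mm39 are named by the submitters' processing notes, with versions, annotation release and strand setting not given in the sources used here. One deposited table holds whole-number read counts for each gene ID, not normalized. Their second deposited table holds, per the file headers, DESeq2 results: a mean normalized count (signal), log2 fold changes with standard errors, a Wald statistic (score), p-values and adjusted p-values. Column names carry an unexplained 10-5, and the day of the labels, 9.5, is used. IDs were cut to 18 characters, and 52029 matched a symbol.

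Counts were tested with edgeR 4.0.16 (quasi-likelihood, filterByExpr, TMM, R 4.3.3) over 14550 features, called at an adjusted p below 0.05, after a check on simulated counts. Per-library shares and ratios were compared by exact permutation. A 2-state hidden Markov model (detection 0.95 or 0.25, switching 0.03, posterior above 0.95, runs of at least 6) marked readable names, with settings taken from earlier work on these data. Alternatives used DESeq2 1.42.0 and limma 3.58.1 among others. All members, every listed feature of the readable part and the 3 features most like the members were named by rule. Hemgn is a listed feature, but its rank was pointed out after it was seen. Members and lists were chosen with earlier results of these data known. Nothing says the libraries came from separate litters. The p-values treat them as independent samples, and may be too small if they are not.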

Additional observations from a re-analysis of the deposited data

How the results depend on the processing

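Each of the 7 members was tested in 15 alternative settings, and none changed direction. Of the 105 member results, 100 kept the call, but they share the same libraries and are not independent. The setting with a minimum log2 fold change reuses the main estimate, so its direction could not change. All 7 were called lower with DESeq2 size factors (where 529 of all features were), the DESeq2 Wald test and limma-voom (508 features). The same held at 5 CPM or more in 3 libraries (479 of 8146 features) and with library sizes without mitochondrial features (536 features). It also held with a term for the split by features named as Y-linked. Without a low-count filter all 7 were called too, but edgeR then gave adjusted p of 1.14e-66 for mt-Nd1 and 2.15e-159 for Pou3f2. The main fit gave 0.00389 and 0.0411, so those calls, though counted among the 100, are no separate support. Against a minimum log2 fold change of 0.5, which asks for a larger change, 4 members (not mt-Nd2, mt-Nd3 or mt-Nd4l) and 2 of the other 6 mRNAs were called. Leaving out each library gave 6 to 7 members. Among all features, 393 were called lower without mutant replicate 2 and 565 without mutant replicate 3. Libraries that share a number showed no common deviation (correlations of -0.23, -0.0051 and -0.0075), and with the replicate block 7 members were called, with 411 features lower and 433 higher; the block changed no call of a member. Over all features, 534 were lower and 618 higher, against 1145 and 1352 without a filter, 264 and 273 with the term for that split, 122 and 94 against the minimum, 63 and 66 without wild-type replicate 2, 151 and 163 without wild-type replicate 3, 415 and 408 without wild-type replicate 1, 259 and 327 without mutant replicate 1, and 796 and 967 with DESeq2. The uncalled mt-Rnr1 changed sign, from 0.04 to -0.016 with limma-voom and -0.017 with the replicate block, within -0.29 to 0.21 over the libraries left out. So did, over the libraries left out, the mt-Nd6 log2 ratio (-0.24 to 0.014) and the shares within complex I of mt-Nd4l (-0.21 to 0.24 points), mt-Nd5 (-1.89 to 0.20) and mt-Nd6 (-0.54 to 0.016); the causes were not tested.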

Other observations

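Of the 22 transfer RNA genes of the mitochondrial genome, which lie between the mRNAs described here, 20 had no count in any library. mt-Tc had 1 count in wild-type replicate 1 and 1 in wild-type replicate 3, and mt-Tp alone passed the filter.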
